A study of Mus musculus with 11 samples.

Results

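Spp1, Igf1, Lpl, Cst7, Itgax, Clec7a, Lgals3, Gpnmb, Fabp5 and Axl, 10 genes widely used to mark disease-associated microglia, were followed one at a time in single-cell RNA sequencing libraries of mouse brain microvessels. They were taken by symbol from the 32287 features of the deposited count matrices, and all 10 were found. The genes were proposed when earlier results of these data, including a tendency of such genes to be higher in the mutant mice, were already known, so that tendency is given here as a description and supports nothing. In R182C-TgN3 mice the human NOTCH3 transgene holds the R182C change, which causes the small vessel disease CADASIL, and WT-TgN3 control mice carry the human NOTCH3 transgene without it. The 11 libraries, each labelled with the sex and age of 1 mouse, came from 6 R182C-TgN3 mice (3 of 6 months and 3 of 9 months, 4 female and 2 male) and 5 WT-TgN3 mice (3 of 6 months and 2 of 9 months, 3 female and 2 male). None of the mice had been treated, and no mouse without a transgene was among them. Brains had been digested to microvascular fragments, which were captured on beads against CD31 before they were taken apart into cells, so the microglia described are those that came along with vessels. Mice are named by genotype, age and replicate number.

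Microglia are the resident macrophages of the brain, and around plaques, damaged myelin and dying neurons a minority of them lose homeostatic genes and switch on a phagocytic and lipid-handling programme. TREM2 signalling and APOE are the best known drivers of that state. The programme mixes secreted factors (Spp1, Igf1), surface receptors (Itgax, Clec7a, Axl, Gpnmb) and proteins of lipid handling and lysosomes (Lpl, Fabp5, Lgals3, Cst7), and most of these genes also serve other cells of the vessel wall or the blood.

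Cells were assigned by marker genes. A barcode was a microglial cell when it held at least 4 UMIs of P2ry12 and Cx3cr1 together and, where it also passed the gate of another type, at least 2 times as many as that gate's. Of 66658 barcodes, 58579 were kept, from libraries of 17550806 to 64215050 UMIs, and 12813 of these were microglia, 7077 of them mutant and 5736 control cells. Each mouse gave 487 to 2342 microglia with a median depth of 3911 to 8157 UMIs per cell. All 6 microglial markers that the gate did not use, among them Tmem119 and Sall1, were highest in these cells. The same was true of 5 of 5 outside markers in macrophages (171 cells), endothelial cells (38323) and mural cells (2859), and of 3 of 3 in fibroblasts (107) and in neutrophils or monocytes (83). Human NOTCH3, the transgene, stood at 380 ± 110 CPM, that is UMIs per 1000000 UMIs of the cell type in a mouse (SD, n = 6), in R182C-TgN3 and 73.4 ± 18.1 CPM (SD, n = 5) in WT-TgN3 mural cells, so the groups differ in transgene level as well as in sequence. The 15 pairs of 6-month libraries shared 62 to 350 barcodes each, against 5 to 38 in the other 40 pairs. The 207 microglia with a shared barcode held 95 of the 5218 UMIs of the 10 genes, and the genotype fit was repeated without them.

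GENCODE vM21 places the genes on mm10 at chr5:104435118-104441050 for Spp1, chr10:87858265-87937042 for Igf1, chr8:68880491-68907448 for Lpl, chr2:150570415-150578944 for Cst7, chr7:128129547-128150657 for Itgax and chr14:47367751-47386160 for Lgals3. Gpnmb lies at chr6:49036546-49070929 and Fabp5 at chr3:10012548-10016607, all on the plus strand, while Clec7a, at chr6:129461591-129472779, and Axl, at chr7:25757273-25788705, lie on the minus strand. Clec7a is a polymorphic pseudogene in that annotation and is listed in the matrices by its symbol instead of an Ensembl identifier. How its reads were counted was not checked, so comparisons of its level or detection with those of other genes are uncertain. Igf1os, on the strand opposite Igf1, is the only overlapping gene that the matrices also count.

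Most pairs of the genes met in single cells more often than their separate shares would give, as described below. For that reason the sequence just upstream of their starts was searched for shared motifs. RefSeq promoters of the build GRCm38.p6 were matched for 8 of the 10 genes. The 250 bases before the start are printed, 5′ to 3′ on the gene's strand, for the 4 genes whose results are described at most length and whose window holds no exon: Spp1 at chr5:104434861-104435110, Cst7 at chr2:150570165-150570414, Clec7a at chr6:129472780-129473029 and Axl at chr7:25788734-25788983. Capitals mark GAGGAA, the core bound by the myeloid factor PU.1, or its reverse complement TTCCTC.
Spp1: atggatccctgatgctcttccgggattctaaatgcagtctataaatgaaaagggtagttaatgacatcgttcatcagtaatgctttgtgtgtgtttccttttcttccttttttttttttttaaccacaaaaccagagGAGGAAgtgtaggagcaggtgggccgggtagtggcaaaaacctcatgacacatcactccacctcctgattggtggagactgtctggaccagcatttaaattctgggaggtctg
Cst7: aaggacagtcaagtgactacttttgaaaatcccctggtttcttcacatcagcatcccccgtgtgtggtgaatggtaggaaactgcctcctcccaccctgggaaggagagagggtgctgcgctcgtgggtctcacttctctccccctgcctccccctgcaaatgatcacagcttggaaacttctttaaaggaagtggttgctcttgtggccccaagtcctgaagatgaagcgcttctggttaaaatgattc
Clec7a: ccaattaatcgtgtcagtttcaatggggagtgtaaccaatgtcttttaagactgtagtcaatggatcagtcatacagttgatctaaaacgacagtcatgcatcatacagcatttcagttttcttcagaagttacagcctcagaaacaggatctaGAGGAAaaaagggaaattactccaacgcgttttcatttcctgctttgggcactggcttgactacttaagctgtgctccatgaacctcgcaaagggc
Axl: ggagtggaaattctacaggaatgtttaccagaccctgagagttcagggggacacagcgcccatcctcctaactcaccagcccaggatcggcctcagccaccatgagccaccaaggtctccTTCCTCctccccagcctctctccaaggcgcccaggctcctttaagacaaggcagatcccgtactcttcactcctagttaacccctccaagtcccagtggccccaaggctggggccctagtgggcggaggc

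GAGGAA, searched on both strands, was present in 4 of the 8 genes with a promoter (Spp1, Igf1, Clec7a and Axl) and in 7639 of all 32851 promoters of this length (23.3%). It began 113 bases before the start of Spp1, 96 before Clec7a and, on the minus strand, 130 before Axl. TGANTCA, the AP-1 element, was in Igf1 and Itgax and in 6.75% of all promoters, and CACGTG, the element of the MITF and TFE factors, was in none of the 8 and in 6.02% of all. These matches describe letters in a window and no binding was measured.

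Where each gene's RNA was found came first. Cst7, an inhibitor of cysteine proteases, Clec7a, the receptor for fungal beta-glucan also called dectin-1, and Itgax, the integrin alpha chain CD11c, were mostly microglial, with 79.9% of 642, 71.5% of 2108 and 60.6% of 533 UMIs in microglia, which were 21.9% of the kept cells. The other 7 genes had 10.1% to 24.1% of their UMIs there. Spp1, the matrix protein osteopontin, had 23.9% of 3216 UMIs in microglia and 30.2% in the 107 fibroblasts, and Lpl, lipoprotein lipase, had 23.1% of 3943 in microglia and 34.8% in mural cells. Axl, a receptor kinase for Gas6 and protein S, had 14.8% of its 3436 UMIs in microglia and 60.8% in mural cells.

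Microglia were not the cell type with the highest level of any of the 10 genes (mean CPM over mice in which the type had 10 or more cells). Axl stood at 109 ± 10.3 CPM (SD, n = 5 mice) in fibroblasts, 97.7 ± 11.9 CPM (n = 11) in mural cells and 82.6 ± 37.1 CPM (n = 8) in macrophages, 3 types whose ranges overlapped, and at 6.96 ± 2.55 CPM (n = 11) in microglia. Lpl was 282 ± 68.3 CPM (n = 5) in fibroblasts, above the range of every other type, then 63.2 ± 13.9 CPM (n = 11) in mural cells. Macrophages followed at 24.4 ± 46.6 CPM (n = 8) and microglia at 13.4 ± 5.07 CPM (n = 11). The range of macrophages overlapped those of mural cells and microglia. Igf1, insulin-like growth factor 1, was highest in macrophages at 181 ± 54.8 CPM (n = 8), with fibroblasts next at 47.3 ± 56.3 CPM (n = 5) and overlapping, against 2.57 ± 3.75 CPM (n = 11) in microglia. Lgals3, the glycan-binding galectin-3, reached 806 ± 275 CPM (n = 4) in neutrophils or monocytes, with no overlap with macrophages at 126 ± 98.5 CPM (n = 8), and was 4.96 ± 3.73 CPM (n = 11) in microglia. The heat map of mean levels shows fibroblasts, macrophages or blood cells at the top for these genes.

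**Figure D1:**
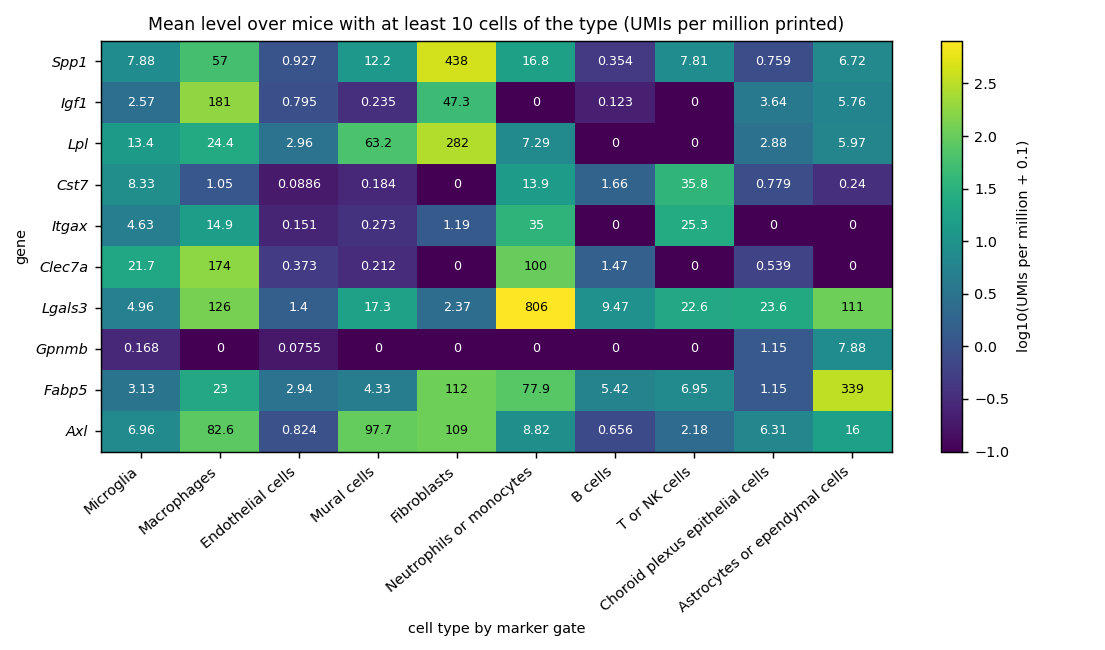
Mean level of each of the 10 genes (vertical axis) in each gated cell type (horizontal axis), in UMIs per 1000000 (CPM) over mice with 10 or more such cells; colour is log10(CPM + 0.1) and the printed value is the mean. The microglial column is not the highest in any line, and Spp1 is at 438 in fibroblasts and 7.88 in microglia.

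For Clec7a, macrophages had 174 ± 98.5 CPM (n = 8) and neutrophils or monocytes 100.35 ± 48.3 CPM (n = 4), which overlapped each other. Microglia had 21.7 ± 10.4 CPM (n = 11) and overlapped the neutrophils or monocytes, with a highest mouse at 48.7 CPM against a lowest of 35.02 CPM there. No mouse's microglia fell within the range of the next type, B cells, whose mean was 1.47 CPM. Cst7 was highest in T or NK cells at 35.8 ± 12.7 CPM (n = 9), followed by neutrophils or monocytes at 13.9 ± 20.7 CPM (n = 4) and microglia at 8.33 ± 8.37 CPM (n = 11), neighbours that overlapped. Itgax went from 35.0 ± 27.4 CPM (n = 4) in neutrophils or monocytes through 25.3 ± 25.9 CPM (n = 9) in T or NK cells and 14.9 ± 16.2 CPM (n = 8) in macrophages to 4.63 ± 1.73 CPM (n = 11) in microglia, and every neighbouring pair overlapped.

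Fabp5, a carrier of fatty acids, was highest in the few astrocytes or ependymal cells (339 ± 344 CPM, n = 3), followed by oligodendrocytes at 129 CPM in the 1 mouse with enough cells and fibroblasts at 112 ± 59.1 CPM (n = 5). Its microglial level of 3.13 ± 2.18 CPM (n = 11) was next to the endothelial level of 2.94 ± 1.10 CPM (n = 11), with overlapping ranges. Gpnmb, a glycoprotein of lysosomes and the cell surface, was close to undetected, with 54 UMIs in all kept cells and 13 in 8 microglia, and no UMI was found in macrophages, mural cells or fibroblasts, where 3 UMIs would have been 3.55, 0.142 and 2.22 CPM. Spp1 outside fibroblasts rested on few cells everywhere, and the mural value of 12.2 ± 34.2 CPM (n = 11) came from 1 WT-TgN3 9-month mouse at 115 CPM in which 1 cell held 436 UMIs.

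Detection in microglia was sparse. To compare cells at equal depth each was thinned to 2000 UMIs, which left out 1070 shallower microglia. Of the remaining 11743 cells, 338 (2.88%) had a UMI of Clec7a, 199 (1.69%) of Lpl, 142 (1.21%) of Axl and 122 (1.04%) of Cst7. Without thinning the shares were 6.03%, 3.31%, 2.76% and 2.72%. In 34870 endothelial cells thinned the same way, set beside them for comparison, the shares were 0.0774%, 0.465%, 0.149% and 0.0201%. Itgax (0.724% against 0.0143%), Spp1 (0.511% against 0.0488%), Lgals3 (0.511% against 0.192%) and Igf1 (0.298% against 0.0975%) were also above the endothelial share. Fabp5, with 0.494% against 0.459%, was near the endothelial share and Gpnmb had 3 cells. Single endothelial cells held up to 17 UMIs of Fabp5, 24 of Lpl and 30 of Lgals3. How much of the endothelial share was free RNA was not tested. Median depths before thinning were 5247 UMIs in microglia and 4785 in endothelial cells.

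Outside microglia several types had larger shares of cells with a UMI. Igf1 was found in 27.4% and Clec7a in 24.7% of 146 thinned macrophages, Lgals3 in 65.9% of 82 neutrophils or monocytes, and Axl in 20.045% and Lpl in 10.6% of 2679 mural cells. Of 96 fibroblasts 38.5% had a UMI of Lpl, 37.5% of Spp1 and 20.8% of Axl. Cst7 and Itgax had no UMI in the 146 macrophages after thinning, and without thinning 1 and 7 of 171 macrophages had one.

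The genotype comparison asks whether the disease-associated genes differ between microglia of mutant and control mice. In the test across all 10907 expressed genes (edgeR quasi-likelihood test on UMIs summed per mouse, Benjamini-Hochberg adjusted p under 0.05), 0% of genes were called, and none of the 9 genes that passed the filter on low counts was (adjusted p = 1.00 for each). Over all genes 116 had an unadjusted p under 0.05, and DESeq2 called 0 genes with 80 under that value. All 9 fitted values were above 0, with a median log2 fold change of 0.47 against 0.0085 over all genes, of which 52.8% were above 0. The level in R182C-TgN3 overlapped that in WT-TgN3 mice for each of the 10 genes. Without the microglia of shared barcodes 0 genes were called and the log2 fold changes were 1.64 for Spp1, 1.46 for Igf1, 0.80 for Cst7, 0.61 for Fabp5, 0.45 for Itgax, 0.44 for Clec7a, 0.23 for Lpl, 0.15 for Lgals3 and 0.017 for Axl. P-values here measure the spread between mice.

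**Figure D2:**
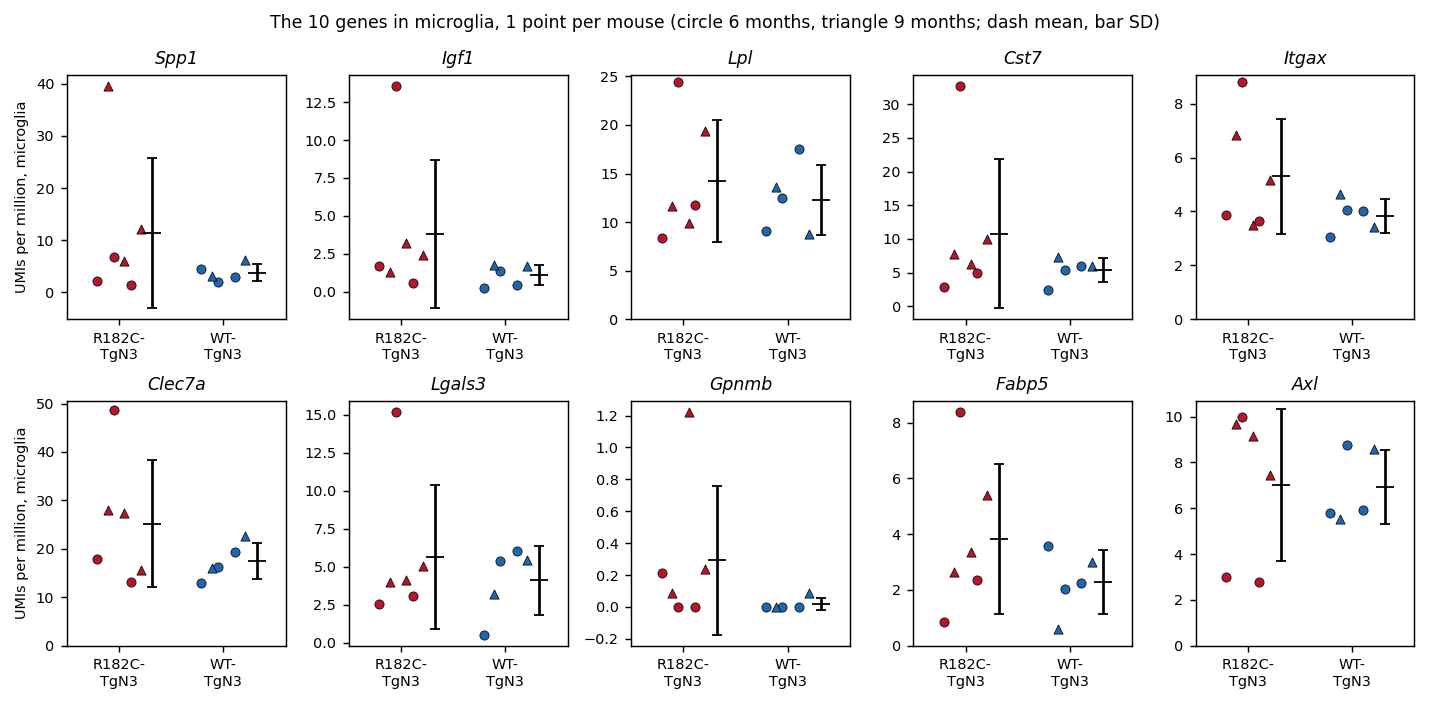
Level of each gene in the microglia of each mouse (vertical axis, CPM) by genotype (horizontal axis); circles are 6-month and triangles 9-month mice, and the dash and bar give the mean and SD. Spp1 reaches 39.6 in 1 R182C-TgN3 9-month mouse and Cst7 32.8 in 1 R182C-TgN3 6-month mouse, and every panel has overlapping genotypes.

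Among the secreted factors, Spp1 in R182C-TgN3 microglia had a lowest level of 1.32, a median of 6.37 and a highest level of 39.6 CPM, the last in R182C-TgN3 9-month mouse 1. The WT-TgN3 6-month mice had 4.41, 2.02 and 2.95 CPM and the 9-month mice 3.19 and 6.14 CPM. In all, 3 R182C-TgN3 mice were above every control and the lowest value of all was also from an R182C-TgN3 mouse. The means were 11.3 ± 14.4 CPM in the mutants (SD, n = 6) and 3.74 ± 1.59 CPM in the controls (SD, n = 5), and the log2 fold change was 1.64 (SE 0.66, unadjusted p = 0.0231, adjusted p = 1.00 by edgeR). Without R182C-TgN3 9-month mouse 1 the estimate was 0.55, with the replicate number as a block 0.89, and without the 9-month mice it turned to -0.13. Igf1 ran from 0.586 through a median of 2.05 to 13.6 CPM in R182C-TgN3 mice and was 0.276, 1.35 and 0.472 CPM in the 6-month and 1.74 and 1.67 CPM in the 9-month controls. It rested on 102 UMIs in the mutant and 34 in the control microglia. Its log2 fold change was 1.48 (SE 0.68, unadjusted p = 0.0448, edgeR adjusted p = 1.00), and 0.73 without R182C-TgN3 6-month mouse 2, the mouse with the highest level.

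Among the surface receptors, Clec7a had 1507 microglial UMIs, the most of the 10. Its lowest, median and highest levels in R182C-TgN3 mice were 13.2, 22.7 and 48.7 CPM. The controls had 12.97, 16.1 and 19.4 CPM at 6 months and 15.97 and 22.7 CPM at 9 months. The mutant mean of 25.2 ± 13.1 CPM (SD, n = 6) and the control mean of 17.4 ± 3.73 CPM (SD, n = 5) gave a log2 fold change of 0.46 (SE 0.26, edgeR unadjusted p = 0.0979, adjusted p = 1.00), which moved to 0.24 without R182C-TgN3 6-month mouse 2, the highest for this gene as well. For Clec7a, R182C-TgN3 9-month mice 1 and 2 and 6-month mouse 2 were above every control. For Itgax the mice above every control were R182C-TgN3 9-month mice 1 and 3 and 6-month mouse 2. The remaining mutant mice lay among the controls for each gene. Itgax was at 3.51, 4.50 and 8.79 CPM (lowest, median, highest) in R182C-TgN3 mice and between 3.04 and 4.64 CPM in controls. Its log2 fold change was 0.47 (SE 0.25, edgeR adjusted p = 1.00) and stayed between 0.34 and 0.56 with each mouse left out.

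Axl had close means, at 7.0025 ± 3.31 CPM in the mutants (SD, n = 6) and 6.91 ± 1.61 CPM in the controls (SD, n = 5), with a fitted log2 difference of 0.03 (SE 0.31, edgeR adjusted p = 1.00). The R182C-TgN3 mice were spread from 2.78 through 8.30 to 9.99 CPM and the controls from 5.52 to 8.75 CPM, so 3 mutant mice lay above every control and the lowest values of all also came from mutant mice. The sign of this value turned in 6 of the 11 fits with a mouse left out and under 7 of the 19 other alternatives, and with age in the fit it was -0.09. Gpnmb was too low to be tested. It had 1, 8 and 2 UMIs in the R182C-TgN3 9-month mice, 1, 0 and 0 in the 6-month mutants, 0 in every 6-month control and 0 and 1 in the 9-month controls. Of its 13 microglial UMIs, 6 were in 1 cell of R182C-TgN3 9-month mouse 2.

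Among the genes of lipid handling and lysosomes, Cst7 was at 2.78, 7.02 and 32.8 CPM (lowest, median, highest) in R182C-TgN3 mice and at 2.48, 5.38 and 6.02 CPM in the 6-month and 7.26 and 5.97 CPM in the 9-month controls. The highest value was again R182C-TgN3 6-month mouse 2. Its log2 fold change of 0.82 (SE 0.46, edgeR unadjusted p = 0.0886, adjusted p = 1.00) became 0.28 without that mouse. Lpl had means of 14.2 ± 6.25 and 12.3 ± 3.58 CPM (log2 fold change 0.20, SE 0.24), Fabp5 of 3.83 ± 2.68 and 2.28 ± 1.14 CPM (0.61, SE 0.44) and Lgals3 of 5.67 ± 4.74 and 4.12 ± 2.27 CPM (0.25, SE 0.44), each with an edgeR adjusted p of 1.00. Lpl was spread from 8.35 to 24.4 CPM in mutant and from 8.78 to 17.5 CPM in control mice, Fabp5 from 0.856 to 8.39 and from 0.581 to 3.59 CPM, and Lgals3 from 2.57 to 15.2 and from 0.552 to 6.02 CPM, with the genotypes overlapping for each. When R182C-TgN3 6-month mouse 2 was left out the estimates were 0.052 for Lpl, 0.37 for Fabp5 and -0.15 for Lgals3.

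R182C-TgN3 6-month mouse 2 was the highest of all 11 mice for 8 of the 10 genes, the exceptions being Spp1 and Gpnmb. Its 498 microglia had a median depth of 5100.5 UMIs, within the range of the other mice. Markers of other cell types in microglia did not separate the genotypes. The summed macrophage list (9 markers, of which Lyve1 was at 0) stood at 603 to 936 CPM in R182C-TgN3 and 626 to 937 CPM in WT-TgN3 microglia against 8282 CPM in macrophages. The fibroblast list was at 0 to 1.79 and 0.336 to 2.13 CPM, the mural list at 11.2 to 38.7 and 7.81 to 40.6 CPM, and the neutrophil or monocyte list, with Retnlg at 0 among its 7 markers, at 2.14 to 4.74 and 1.93 to 7.44 CPM. The dissociation stress genes Hspa1b and Hspa1a had log2 fold changes of 0.88 (SE 0.62) and 0.37 (SE 0.50), and their part in the values of the 10 genes was not tested.

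**Figure D3:**
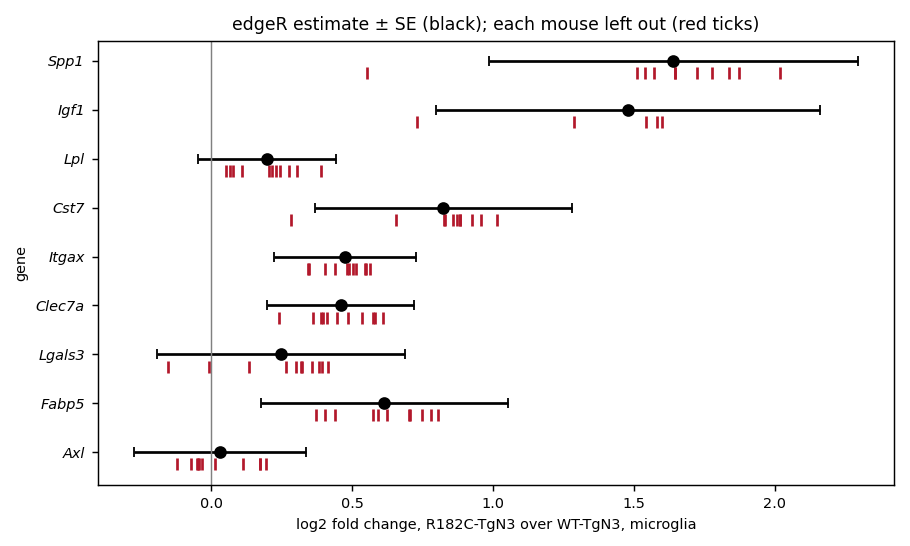
Log2 fold change between genotypes in microglia (horizontal axis) for the 9 genes that could be tested (vertical axis); black points and bars are the edgeR estimate and its SE, red ticks the estimates with each mouse left out, of which Igf1 has 5 because it fell under the count filter in the others. Spp1 goes from 1.64 to 0.55 with 1 mouse left out, and the ticks of Lgals3 and Axl lie on both sides of 0.

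The labels name 4 batches. Batch 1 held 2 mice of each genotype at 9 months, batch 3 held 2 of each at 6 months, batch 4 held 1 of each at 6 months, and batch 2 held 1 R182C-TgN3 9-month mouse, so age and batch cannot be told apart. Igf1 and Fabp5 were higher in the mutant mice in 3 of the 3 batches with both genotypes, and the share of all genes that were so was not counted. Igf1 differed by 0.540, 6.84 and 0.113 CPM in batches 1, 3 and 4, the last from 4 UMIs in each mouse. Fabp5 differed by 1.22, 1.82 and 0.099 CPM, the last from 16 UMIs in the mutant and 19 in the control mouse. Spp1 differed by 18.1, 1.25 and -1.63 CPM and Cst7 by 0.407, 13.8 and -1.04 CPM, so each drew most of its difference from 1 batch. Clec7a differed by 8.41, 18.8 and -6.19 CPM and Itgax by 1.14, 2.78 and -0.354 CPM. Lpl, Lgals3 and Axl were higher in the mutants in 1 of 3 batches.

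Age was compared with genotype in the fit. Spp1 was 3.27 ± 2.02 CPM (SD, n = 6) in 6-month and 13.4 ± 15.0 CPM (SD, n = 5) in 9-month microglia, which differed by 1.96 on the log2 scale (SE 0.53, unadjusted p = 0.00178, adjusted p = 0.101 by edgeR). By group it was 3.13 ± 1.21 CPM (n = 3) and 4.67 ± 2.09 CPM (n = 2) in WT-TgN3 mice of 6 and 9 months, and 3.42 ± 2.95 CPM (n = 3) and 19.2 ± 17.9 CPM (n = 3) in R182C-TgN3 mice. Of all 10907 genes 0.468% were called between ages, and none of the 9 genes tested was. Spp1 passed the threshold without the filter on low counts (adjusted p = 4.28e-05) and without R182C-TgN3 9-month mouse 3 (adjusted p = 0.0434), and the log2 fold change was 1.19 to 2.22 with each mouse left out. Axl had a log2 fold change of 0.59 (SE 0.28, edgeR adjusted p = 0.356) and the other 7 genes lay between -0.18 and 0.11. For the difference of the genotype contrast between ages edgeR called 0% of genes (221 at an unadjusted p under 0.05), and Spp1 had a log2 difference of 2.13 (SE 1.01) and Igf1 of -2.35 (SE 1.32), both with an adjusted p of 1.00. Spp1 fell to 0.99 without R182C-TgN3 9-month mouse 1, and Igf1 was -0.43 without R182C-TgN3 6-month mouse 2.

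The spread between mice went with very few cells. For Spp1, 3 of the 128 microglia with a UMI held 50% of its 768 UMIs and 10 held 78.6%. Igf1 had 50% of its UMIs in 8 cells, Lgals3 in 18, Fabp5 in 34, Lpl in 58, Cst7 in 92, Itgax in 94, Axl in 101 and Clec7a in 155. In R182C-TgN3 9-month mouse 1, 5 cells held 434 of the 464 Spp1 UMIs, and in R182C-TgN3 6-month mouse 2, 5 cells held 68 of 82 Cst7 and 33 of 34 Igf1 UMIs. When the 5 cells with the most UMIs of a gene were left out in every mouse, a step chosen after the data were seen, Spp1 was 1.08 ± 0.850 CPM (SD, n = 6) in R182C-TgN3 and 0.595 ± 0.605 CPM (SD, n = 5) in WT-TgN3 microglia. Clec7a was then 16.9 ± 7.38 and 12.4 ± 4.41 CPM, and Cst7 4.54 ± 1.65 and 3.19 ± 2.08 CPM. Lgals3 turned to the other direction, with 0.853 ± 0.789 CPM in the mutants and 1.13 ± 1.28 CPM in the controls, and Fabp5 came to 1.13 ± 0.564 and 1.04 ± 0.982 CPM. A mouse with 5 or fewer cells with a UMI falls to 0 by this step, as the lowest mouse of each genotype did for Lgals3 and Fabp5. The 5 cells are also a larger share of 487 microglia than of 2342, so no direction is read from these values.

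The share of cells with a UMI was compared as well. Thinned to 2000 UMIs, Spp1 was found in 0.516% ± 0.200 of the mutant (SD, n = 6) and 0.429% ± 0.143 of the control microglia (SD, n = 5), and Cst7 in 0.918% ± 0.423 and 1.02% ± 0.517. For Clec7a the shares were 3.19% ± 1.40 and 2.53% ± 0.536, for Igf1 0.368% ± 0.333 and 0.310% ± 0.156, and for Lgals3 0.455% ± 0.435 and 0.614% ± 0.443. Cst7, Itgax and Lgals3 had the higher mean share in the control mice. Each difference was within the SD of the mutant mice, although that of Clec7a was larger than the SD of the controls. Without thinning, Cst7, Itgax and Lgals3 turned to the higher mean share in the mutant mice.

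The genes met in the same cells. Of the 36 pairs of the 9 genes other than Gpnmb, 35 were found together in more thinned microglia than the product of their shares within each mouse gives, 29 of them in more than 5 times as many, and the median ratio was 7.60. Lpl and Clec7a shared the most cells, 38 against 5.86, followed by Clec7a and Axl with 32 against 4.41. The highest ratios were 26.4 for Spp1 and Igf1 (5 cells), 22.8 for Spp1 and Lgals3 (7 cells) and 22.3 for Lgals3 and Fabp5 (7 cells). Itgax and Fabp5 were never seen in 1 cell. Of the cells with Lgals3 51.7% had another of the 10 genes, as had 45.7% of those with Igf1, 45.0% with Spp1 and 24.6% with Cst7, against 4.80% to 7.26% of cells without the gene in question. With so few cells these ratios are descriptions.

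**Figure D4:**
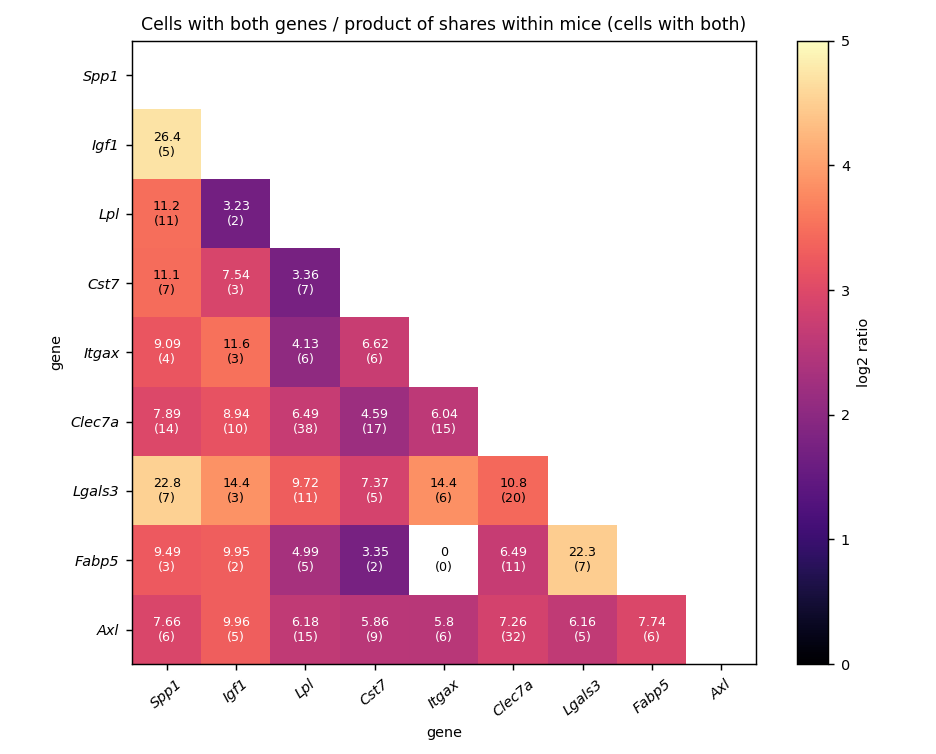
Pairs of the 9 genes other than Gpnmb in microglia thinned to 2000 UMIs (both axes list genes); colour is log2 of the number of cells with both genes over the product of their shares within mice, and each square prints the ratio and, in brackets, the cells with both. Every square but that of Itgax and Fabp5 is above 1, up to 26.4 for Spp1 and Igf1.

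Of the thinned microglia 92.5% had none of the 10 genes, 731 had 1, 114 had 2 and 40 had at least 3. The 40 cells were 0.441% ± 0.394 of the mutant (SD, n = 6) and 0.316% ± 0.162 of the control microglia (SD, n = 5) (25 of 6426 and 15 of 5317), within the spread. Set beside the 10858 cells with none, 20 of 21 further disease-associated genes were higher in them, with a median ratio of 2.12. Apoe, the lipid carrier, stood at 18779 against 268 CPM, a ratio of 70.2, and Lyz2, lysozyme, at a ratio of 18.4. Csf1, a growth factor of microglia, Cd63 and Ctsb, a lysosomal protease, had ratios of 6.04, 3.94 and 2.97. All 5 of these genes (Apoe, Lyz2, Csf1, Cd63 and Ctsb) were higher in each of the 5 mice with at least 5 such cells, whereas Trem2 had a ratio of 1.31 and was higher in 3 of them.

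All 10 homeostatic genes were lower in those cells, with ratios from 0.291 for Siglech to 0.725 for Csf1r. Tmem119 had a ratio of 0.292, and 9 of the 10 genes were higher in none of the 5 mice. The gate genes P2ry12 and Cx3cr1 had ratios of 0.226 and 0.611. Among macrophage genes, Ms4a7, a gene of border macrophages that the gate did not use, was at 130 against 1.08 CPM (40 UMIs, a ratio of 121) and higher in 3 of 5 mice. Maf and Stab1, also macrophage markers outside the gate, had ratios of 0.449 and 0.652 and were higher in 0 of the 5 mice. Cbr2, another such marker, had 1 UMI. The cells held 6 UMIs of F13a1, 3 of Mrc1, 2 of Pf4 and 0 of Cd163, which are gate genes and so partly held low by the gating, and 0 of Lyve1. Their part in the ratios was not tested. Their median depth before thinning was 7108.5 UMIs against 5480. Since the cells were chosen by UMIs of the 10 genes, these ratios are given with no test.

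Counted without thinning, 69 of the 12813 microglia (0.539%) had at least 4 of the 10 genes. They held 1805 of the 5218 UMIs of the 10 genes in microglia (34.6%). Of the 69 cells, 65 had no UMI of the macrophage gate, whose UMIs the gating itself partly held low. By gene they held 79.2% of the Spp1, 69.2% of the Gpnmb, 52.3% of the Lgals3, 40.4% of the Igf1 and 17.0% of the Axl UMIs. By mouse they numbered 17, 6 and 9 in the R182C-TgN3 9-month, 1, 7 and 2 in the R182C-TgN3 6-month, 3, 3 and 5 in the WT-TgN3 6-month and 2 and 14 in the WT-TgN3 9-month mice. Their share of the UMIs of the 10 genes went from 4.93% to 54.5% in R182C-TgN3 and from 14.0% to 30.7% in WT-TgN3 mice, so the genotypes overlapped. Deeper cells pass such a count more easily, and their median depth was 8944 UMIs against 5247 in all microglia.

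**Figure D5:**
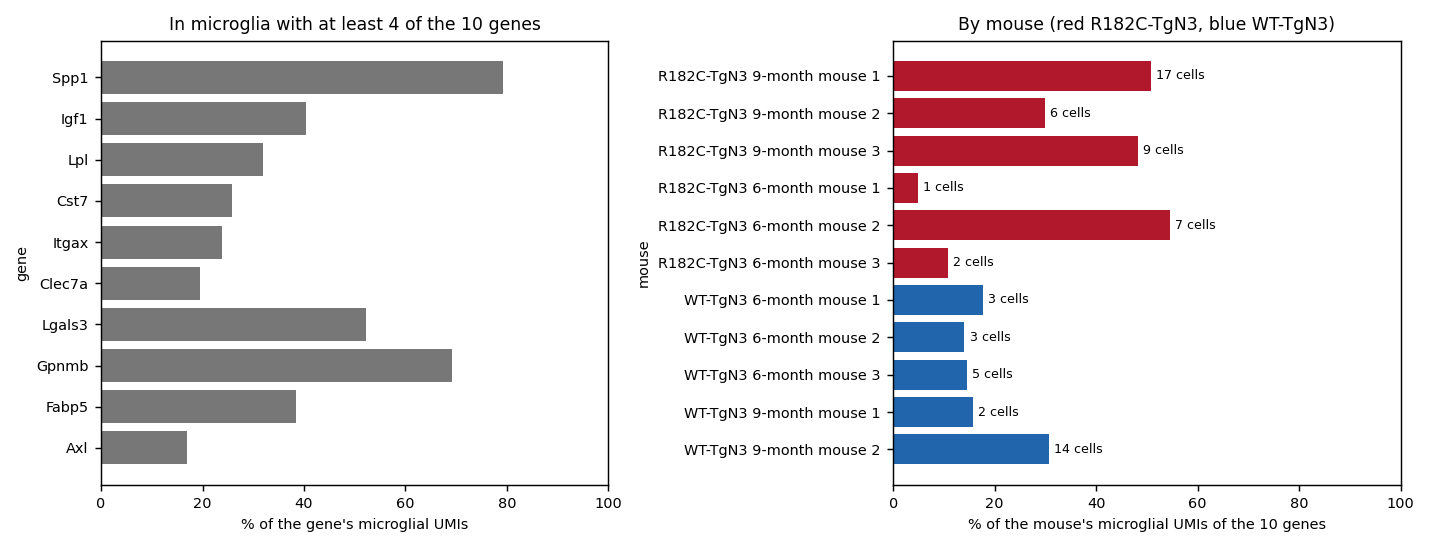
Left, share of each gene's microglial UMIs (horizontal axis, percent) that lies in the 69 microglia with at least 4 of the 10 genes; right, share of each mouse's UMIs of the 10 genes that lies in those cells, with their number beside the bar (red R182C-TgN3, blue WT-TgN3). Spp1 leads with 79.2%, and the mice run from 4.93% to 54.5%.

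The 8 microglia with 7 or more of the genes were all from R182C-TgN3 mice, 7 of them from 9-month mice and 1 from 6-month mouse 2. None had a UMI of the macrophage gate, whose UMIs the gating partly held low. They were counted without thinning and held 7344 to 15740 UMIs each, against a median of 5247 in all microglia. Cells are not replicates of a genotype, and with at least 4 of the genes the genotypes overlapped (14 cells in WT-TgN3 9-month mouse 2). The richest of the 8, in R182C-TgN3 9-month mouse 1, had all 10 genes among 14425 UMIs. It held 210 UMIs of Spp1, 15 of Lgals3, 13 of Clec7a, 12 of Itgax, 8 of Fabp5, 5 of Lpl, 3 of Cst7 and 1 each of Igf1, Gpnmb and Axl, with 14 of P2ry12 and Cx3cr1. The cells did not carry the genes in fixed proportion. A cell of R182C-TgN3 9-month mouse 3 had 46 UMIs of Lpl, 25 of Lgals3 and 2 of Spp1, and the cell of R182C-TgN3 6-month mouse 2 had 31 of Cst7, 20 of Igf1 and 6 of Spp1.

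Likeness over all 12813 microglia was measured for each gene as Pearson's r with the 11946 genes found in at least 1% of the cells, 6 of the 10 genes among them, on log-scaled UMIs centred within each mouse. The points are cells that share libraries and differ in depth, so the values are descriptions. Of the 30 places (3 genes most like each of the 10), 12 went to other genes of the set, Clec7a alone taking 6, and 4 went to Apoe and 5 to Lilrb4a, an inhibitory receptor of myeloid cells. Lpl and Clec7a were each other's first, with r = 0.31, above 0 in 11 of 11 mice. Among those genes Spp1 was most like Lpl (0.21), Clec7a (0.18) and Itgax (0.16), each above 0 in 9 of 11 mice. Lgals3, found in under 1% of the cells and so not ranked, had r = 0.20 with Spp1 and 0.23 with Lpl. Lgals3 was most like Lilr4b (0.33), Lilrb4a (0.31) and Cybb (0.29), and Axl like Ifi207 (0.24), Cybb (0.24) and H2-Aa (0.23), where Cybb is a subunit of the phagocyte oxidase and H2-Aa a class II antigen-presenting chain. The first value was lowest for Cst7, with Lyz2 at 0.12.

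The genotype contrast was also run in macrophages, mural cells and endothelial cells. It called none of those of the 10 genes that were tested there. In macrophages of 8 mice with at least 10 cells (4 of each genotype), edgeR called 0% of 1455 genes, with 37 at an unadjusted p under 0.05. Igf1 stood at 190 ± 57.2 CPM in mutant and 173 ± 59.5 CPM in control macrophages (SD, n = 4 each), and its log2 fold change was 0.15 (SE 0.36, edgeR adjusted p = 1.00). By mouse Igf1 was 118, 258, 189 and 193 CPM in R182C-TgN3 and 197, 195, 214 and 84.3 CPM in WT-TgN3 macrophages, which overlapped. Clec7a and Lgals3 had 0.20 (SE 0.46) and 0.49 (SE 0.63). In mural cells 0.0106% of 9424 genes were called, which was human NOTCH3 alone, with a log2 fold change of 2.37 (SE 0.22, edgeR adjusted p = 7.64e-05). Axl in mural cells was 98.1 ± 14.1 CPM in the mutants (SD, n = 6) and 97.4 ± 10.2 CPM in the controls (SD, n = 5), which overlapped, with a fitted difference of 0.02 (SE 0.11), and Lpl had -0.08 (SE 0.17). In endothelial cells edgeR called 0% of 13201 genes (225 at an unadjusted p under 0.05), and the 5 genes tested lay between -0.88 for Igf1 (SE 0.54) and 0.76 for Lgals3 (SE 0.47). Endothelial Igf1 was -0.21 without WT-TgN3 9-month mouse 2, and Lgals3 was 0.47 without R182C-TgN3 6-month mouse 3, 0.50 without R182C-TgN3 9-month mouse 3 and 0.28 with batch in the fit. DESeq2 was run in microglia alone.

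Genes around the set were read from the same microglial fit. Of 21 further disease-associated genes 19 had a fitted value above 0, that is higher in the mutants, and the median log2 fold change was 0.14, led by Csf1 (0.35, SE 0.20), Cd52 (0.28, SE 0.16) and Cd63 (0.21, SE 0.12). All 10 homeostatic genes were fitted higher too, with a median of 0.07. Of 21 ligands, receptors and partners of the 10 genes 16 were tested, and 8 were fitted higher, with a median of 0.01; the furthest from 0 were Igfbp7 (-0.30, SE 0.34), Cd44, the receptor of osteopontin (0.29, SE 0.25), and Lgals3bp (0.20, SE 0.17). Of the 6 proliferation genes 5 were tested, 1 was higher, and Cenpf had -0.71 (SE 0.52). None of these genes passed the threshold (edgeR adjusted p = 1.00). Between ages the stress gene Hspa1a rose by 1.70 on the log2 scale (SE 0.31, edgeR adjusted p = 0.0227) with 10 of 10 stress genes fitted higher at 9 months, alongside the age values of Spp1 above, and its part in them was not tested.

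Partners of the 10 genes were placed by cell type with pooled levels. Mertk, the relative of Axl, was at 1154 CPM in microglia and 271 CPM in mural cells. Gas6, their ligand, was at 305 CPM in macrophages, 153 CPM in endothelial cells and 51.1 CPM in microglia. Igf1r was at 1776 CPM in endothelial cells and 173 CPM in microglia, and Gpihbp1, which holds lipoprotein lipase on capillaries, at 16.1 CPM in endothelial cells and 0.0567 CPM in microglia. Itgb5 and Itgav, chains of osteopontin receptors, were at 665 and 229 CPM in microglia.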

How the data were processed

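Single-cell libraries of CD31-captured brain microvessels from 11 mice were available as matrices of UMI counts per gene and barcode. The deposited counts were not normalised. The authors made them with Cell Ranger, version 7.0.0 in the submitters' processing notes, against mm10 with human NOTCH3 added. Counting used molecular identifiers, and intervals and limits for a count of 0 cover counting error only.

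A barcode needed 500 genes or more, with mitochondrial UMIs at 10% or less. Simulated doublets were used to score the rest, and 0.8% of barcodes per 1000 in a library were dropped from the top of that score. Cells were gated at 4 or more UMIs of a type's markers (50 for choroid plexus epithelium, whose transcripts are abundant as free RNA), and a barcode that passed several gates went to the highest if it was at least 2 times every other and was otherwise set aside (705 barcodes). Levels are UMIs per 1000000 UMIs of the type in a mouse (CPM), over mice with at least 10 cells. Detection and co-detection were computed after thinning each cell to 2000 UMIs.

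UMIs were summed per mouse and type and tested in edgeR 4.0.16 (R 4.3.3; filterByExpr, TMM, quasi-likelihood F test) with genotype alone, as the study's methods do, or with age added, and p-values were adjusted over all genes tested. As in the study, no gene of the ribosomal protein, mitochondrial, Gm or Rik classes was tested. Its methods excluded a control library from the microglial analysis without identifying it in the labels, so every library was kept here and each mouse was left out in turn. DESeq2 1.42.0, other size factors, no count filter, covariates for batch, sex and age, other gates and other cell filters were the alternatives. Of the fits, the edgeR genotype fit in microglia was tested on simulated counts. Descriptions used Python 3.11.15 with numpy 2.4.6, scipy 1.17.1 and pandas 2.3.3.

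The 10 genes, the gene lists and the tests were chosen with earlier results of these data known. The genes named were the 10, the 3 most like each, and from each list those past the threshold or otherwise the 3 furthest from 0. Partner levels by type and genes in cells with several of the 10 were picked after their values were seen. Sequences came from RefSeq promoters of GRCm38.p6, matched for 8 of the 10 genes (Lpl and Fabp5 were not matched). Values of some genes of the lists and gates are not reported here.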

Additional observations from a re-analysis of the deposited data

Results flagged for a closer look

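In 9 of 44 groups of mice 1 mouse stood apart by Dixon's criterion, which chance meets in about 1 of 20 where values are normally distributed. The levels of sparse genes were not shown to be so, and no excess over that rate is read from the 9. In R182C-TgN3 microglia Spp1 was 39.6 CPM in 9-month mouse 1 with the next mouse at 12.1 CPM. R182C-TgN3 6-month mouse 2 stood apart for Igf1 (13.6 CPM, next 3.21), Cst7 (32.8 CPM, next 9.95) and Lgals3 (15.2 CPM, next 5.03). Gpnmb stood apart in R182C-TgN3 9-month mouse 2 (1.22 CPM, next 0.240) and in WT-TgN3 9-month mouse 2 (0.0878 CPM from 1 UMI, 0 in the other controls). In macrophages Igf1 was lowest in WT-TgN3 9-month mouse 2 (84.3 CPM, next 195) and Lgals3 highest in R182C-TgN3 6-month mouse 3 (303 CPM, next 109.7). The share of thinned microglia with at least 3 of the 10 genes was 0.599% in WT-TgN3 6-month mouse 2, apart from the other controls.

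Myeloid barcodes with too few P2ry12 and Cx3cr1 UMIs for the microglial gate, 934 in all with a median of 1482 UMIs, entered no comparison. In those of R182C-TgN3 mice together, Spp1 was 105 CPM against 47.0 CPM in the highest WT-TgN3 mouse, Cst7 15.5 against 13.2 CPM, and Gpnmb 8.83 CPM against 0. The other genes of the set were below the highest WT-TgN3 mouse of each gene. The highest control, taken for each gene on its own, was at 165 CPM for Axl, 132 for Itgax, 212 for Clec7a and 304 for Lgals3. Of the 95 mutant Spp1 UMIs 80 were in 2 cells of R182C-TgN3 9-month mouse 3. Without that mouse Spp1 was 21.4 CPM and Cst7 11.4 CPM in the mutants, both below the highest control, and without R182C-TgN3 6-month mouse 3 Cst7 was 13.1 CPM, also below it. All 8 Gpnmb UMIs were in 1 cell of R182C-TgN3 9-month mouse 1. The difference was not tested, and these values were added after the data were seen.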

How the results depend on the processing

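Of 262 values of the 9 genes tested for genotype in microglia under 30 alternatives, 244 kept their direction, 18 reversed and 0 passed the threshold, with a lowest adjusted p of 0.806. Reversed values (log2) were -0.084 for Axl with batch and -0.091 with age as a covariate, -0.13 with a gate of 2 UMIs, -0.051 with barcodes that passed another gate kept and -0.085 with a gate of other microglial genes, and -0.35 for Lgals3 with a gate of 8 UMIs. The cause was not tested. Alternatives chosen after the data were seen left out the 9-month mice (Spp1 -0.13, Axl -0.53), the 6-month mice (Lgals3 -0.033) or barcodes held by several libraries (Spp1 1.64, Igf1 1.46, Cst7 0.80). Without the 9-month mice 3 genes were called (Negr1, H2-Aa and H2-Eb1, all lower in R182C-TgN3) and without the 6-month mice 1 (Mid1), named after their values were seen and none of them among the 10.

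With each mouse left out, genotype values in microglia ran from 0.55 to 2.02 for Spp1, at least 0.73 for Igf1 (5 of 11 fits, since it fell under the count filter in the others), 0.28 to 1.01 for Cst7, 0.052 to 0.39 for Lpl, 0.37 to 0.80 for Fabp5, 0.34 to 0.56 for Itgax, 0.24 to 0.61 for Clec7a, -0.15 to 0.42 for Lgals3 and -0.12 to 0.19 for Axl. In macrophages they ran from -0.023 to 0.37 for Igf1, -0.19 to 0.64 for Clec7a and -0.18 to 0.74 for Lgals3, in endothelial cells from -1.11 to -0.21 for Igf1, 0.016 to 0.59 for Lpl, 0.47 to 0.96 for Lgals3, 0.31 to 0.85 for Axl and -0.24 to 0.11 for Fabp5, and in mural cells from -0.15 to 0.084 for Lpl, -0.27 to 0.024 for Lgals3 and -0.039 to 0.073 for Axl. Batch as a covariate turned mural Lpl to 0.012 and Axl to -0.023. The genes called between ages numbered 14 to 343 with each mouse left out (343 without R182C-TgN3 9-month mouse 3), 44 with DESeq2 size factors and 468 without the count filter, under which 18 were called for genotype by age against 0. Age values ran from -0.38 to 1.23 for Igf1, -0.33 to 0.060 for Lpl, -0.40 to 0.73 for Cst7, -0.078 to 0.30 for Itgax, -0.054 to 0.47 for Clec7a, -0.44 to 0.37 for Lgals3 and -0.27 to 0.49 for Fabp5. Genotype by age ran from 0.99 to 2.89 for Spp1, -2.94 to -0.43 for Igf1 (5 fits), -1.46 to 0.56 for Cst7, -0.25 to 0.42 for Itgax, -0.64 to 0.34 for Clec7a, -1.11 to 0.47 for Lgals3 and -0.071 to 2.40 for Fabp5. The share of microglia with at least 3 of the genes, 0.384% as a mean over mice, was 1.42% without thinning.

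The replicate numbers give the mice only a shared number, since the pairing correlations in microglia ran from -0.0037 to 0.182 over 5 pairs and 6 of 10 mice correlated best with their own number. With the replicate block 0 genes were called between genotypes in microglia (272 at an unadjusted p under 0.05), Spp1 was 0.89, Cst7 0.56, Itgax 0.38, Clec7a 0.50 and Axl -0.061, in endothelial cells Lgals3 was 0.18, and in mural cells Lpl was 0.043, Lgals3 0.050 and Axl -0.019.

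Depth limits what can be said of Gpnmb, Igf1 and Fabp5, which had 13, 136 and 213 microglial UMIs in all. The number of mice and the few cells that held most UMIs of Spp1, Igf1 and Lgals3 limit the genotype values.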
